A study of Mus musculus with 12 samples.

Results

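The genes described here are 10 genes of the ATF4 and endoplasmic reticulum (ER) stress pathways: Atf4, Atf5, Ddit3, Trib3, Chac1, Asns, Sesn2, Hspa5, Herpud1 and Hyou1. They were taken by symbol, and every probe set that the platform annotation gives to one of these symbols alone was kept. This gave 21 probe sets, out of 34945 probe sets and 18193 genes with 1 symbol on the array: 3 for Atf4, 2 for Ddit3, Trib3, Asns, Sesn2 and Herpud1, 3 for Hspa5 and Hyou1, and 1 for Atf5 and Chac1. The study followed C4-HD, a transplanted mammary carcinoma line of BALB/c mice, as it regressed under mifepristone.

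All tumours grew in BALB/c mice, of an age not given in the sources used here, carrying pellets of medroxyprogesterone acetate (MPA), a synthetic progestin. In the MPA group, 2 arrays, the tumours were taken with the progestin still present. In the no MPA group, 2 arrays, the tumours are labelled as saline-treated for 48 h. In the 4 remaining groups, each of 2 arrays, the MPA pellet had been taken out at a tumour size of 50 mm2 and replaced by mifepristone (MFP), an antagonist of the progesterone and glucocorticoid receptors, at 10 mg/kg/day for 6, 12, 24 or 48 h. Each MFP group therefore differs from the MPA group both by the loss of the progestin and by the drug, and these cannot be told apart in that comparison. The labels leave some doubt about the controls. One protocol calls saline-treated tumours with MPA the control group, while the arrays named no MPA carry the saline label, and the series text lists 12, 24 and 48 h without 6 h. C4-HD is a single transplantable line, and the arrays are of whole tumour tissue with host cells included. In such bulk samples, fewer cells of a type and less RNA per cell cannot be told apart.

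When unfolded protein accumulates in the ER, or amino acids run short, a family of kinases phosphorylates the initiation factor eIF2alpha. General translation then slows, while the mRNA of the transcription factor ATF4 is translated better through its upstream open reading frames. ATF4 activity can therefore change without a change in Atf4 mRNA, and is usually followed through its targets: the transcription factors Ddit3 (CHOP) and Atf5, the pseudokinase Trib3, the glutathione-degrading enzyme Chac1, asparagine synthetase (Asns) and the mTORC1 inhibitor Sesn2. The other branches of the response, ATF6 and IRE1-XBP1, raise chaperones and degradation factors of the ER, such as Hspa5 (BiP), its nucleotide exchange factor Hyou1 and the membrane protein Herpud1.

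These branches reach their targets through short DNA elements, which are shown here because each is known to be read by a different branch: the C/EBP-ATF response element by ATF4 with a partner, and the ER stress response elements by ATF6 and XBP1. RefSeq promoters (GRCm38.p6) matched 9 of the 10 genes, all but Hyou1, in 10 entries, since Atf5 has 2. The 250 bases before each start were searched on both strands for the core of the C/EBP-ATF response element, TGATGNAA, for the ER stress response element, CCAAT followed after 9 bases by CCACG, and for ER stress response element II. The core was found in 3.45% of all 32851 promoters, the ER stress response element in 0.113% and element II in 0.0304%. In 4 of the genes there were 5 matches, given 5′ to 3′ on the gene's strand with the matched letters in capitals.
Chac1, chr2:119351029-119351076, plus strand: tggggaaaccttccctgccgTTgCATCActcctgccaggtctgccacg
Asns, chr6:7693210-7693252, minus strand: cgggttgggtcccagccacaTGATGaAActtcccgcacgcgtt
Hspa5, chr2:34772005-34772063, plus strand: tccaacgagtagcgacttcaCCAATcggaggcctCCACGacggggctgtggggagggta
Herpud1, chr8:94386297-94386407, plus strand: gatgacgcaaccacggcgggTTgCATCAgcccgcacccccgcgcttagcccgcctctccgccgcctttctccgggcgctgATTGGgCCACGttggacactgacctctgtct
The core lies 193 bases before the start in Chac1 and 112 before it in Herpud1, read in both from the opposite strand, and 23 before it in Asns. The ER stress response element of Hspa5 begins 65 bases before the start, and the element II of Herpud1 begins 52 before it. Herpud1 thus holds an element of each kind, without overlap. The promoters of Atf4, Atf5, Ddit3, Trib3 and Sesn2 held none of these letters in the window. A match is a description of the letters and not of a bound site.

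The deposited values are log2 ratios of each array to the mean of the MPA arrays, so 0 is the level under MPA, and a level cannot be compared between genes. Differences were tested with limma in 1 model of all 12 arrays over 45037 probe sets, and a change was called at an adjusted p (Benjamini-Hochberg over all of them) under 0.05. Errors after ± are standard errors of that fit. The series text calls the arrays independent replicates, but the labels name no animals, and the p-values cover only the spread among the arrays at hand. Replicate arrays differed over all probe sets with an SD of 0.39 to 0.56 per group. Some arrays carried markers of other tissue: the median of 22 exocrine pancreas probe sets was between 3.83 and 6.14 on both 6 h arrays, both 48 h arrays and 24 h replicate 2, and at most 0.98 on the others. The liver median was 3.45 and 3.96 after 24 h and at most 0.98 elsewhere. The difference between the 3′ and 5′ control probe sets of Actb, a sign of RNA fragmentation, went from -0.07 and 0.05 under MPA to 0.47 and 0.59 after 48 h. It is taken from these ratios, so it is near 0 under MPA by construction. It shows a change from MPA and not how fragmented the RNA was. A list of 25 mammary epithelium probe sets had medians from -0.21 to 0.48, though ratios cannot show whether a marker is present.

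No probe set of the 10 genes passed the limma test against MPA at any single time or over the mean of the 4 times. The background was 0.926% of all probe sets called after 6 h, 3.13% after 12 h, 6.01% after 24 h, 9.25% after 48 h and 5.59% for the mean of the times. At an unadjusted p under 0.05 the members numbered 4 of 21 after 6 h, 4 after 12 h, 6 after 24 h, 3 after 48 h and 4 for the mean, beside 14.0%, 16.9%, 20.7%, 24.0% and 20.8% of all probe sets. The median difference of the 21 was -0.19 after 6 h, -0.22 after 12 h, -0.33 after 24 h and -0.09 after 48 h, against 0.02, 0.02, -0.05 and -0.02 over all probe sets. These 4 comparisons share the same pair of MPA arrays. Between times, members were called for 48 h against 6 h only, where 2 of 21 rose, 9.52% beside a background of 9.08%. The step from 6 to 12 h called 0% of all probe sets, with 1 member at an unadjusted p under 0.05 beside 7.08% of all. From 12 to 24 h the background was 1.52% and from 24 to 48 h 1.18%, with no member called in limma and 3 and 5 members at an unadjusted p under 0.05, beside 14.2% and 11.9% of all.

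**Figure D1:**
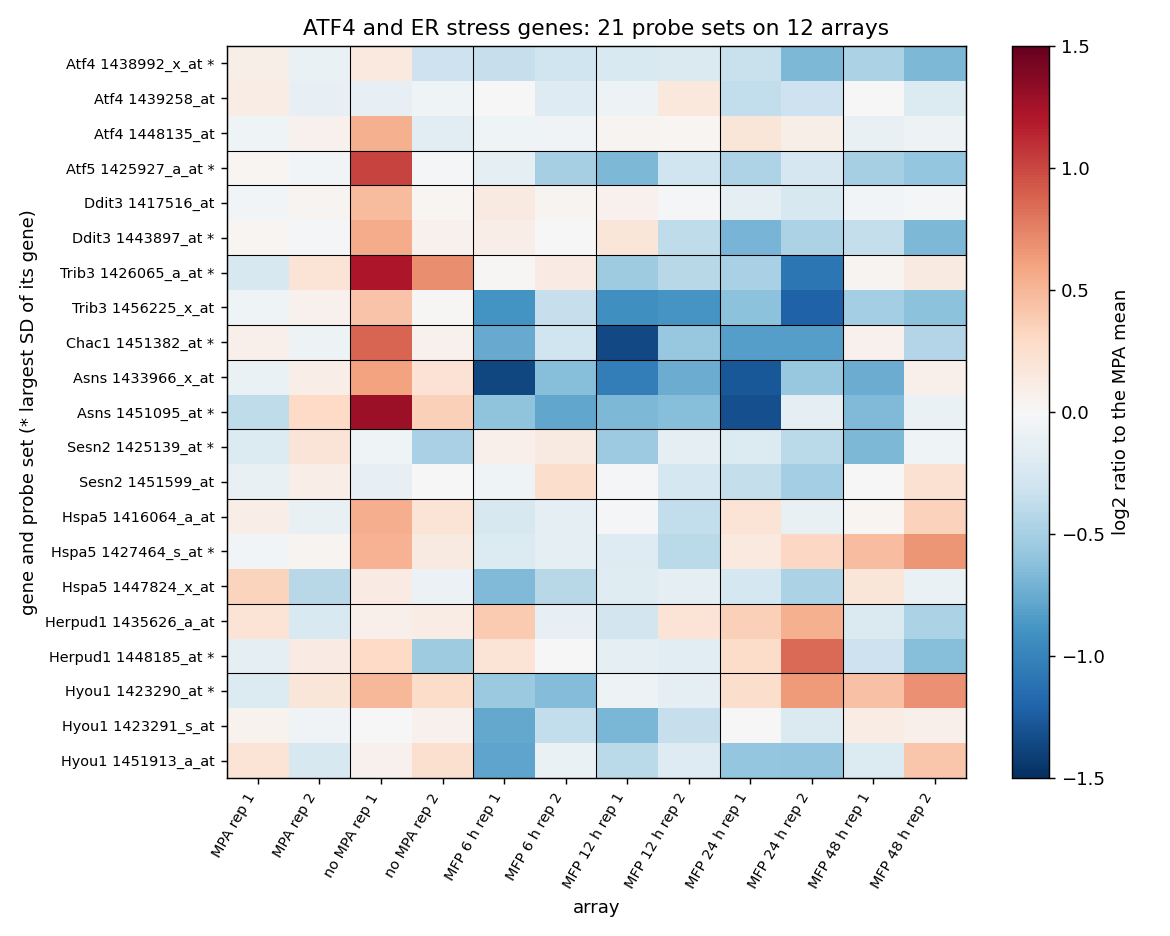
Deposited log2 ratio to the MPA mean (colour) of each of the 21 probe sets (vertical axis, ordered by role) on each of the 12 arrays (horizontal axis, ordered by group). The column of no MPA replicate 1 is the highest of the 12 for 11 of the 21 probe sets, and the Trib3, Chac1 and Asns probe sets are mostly below 0 on the MFP arrays.

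One array stands apart for these genes. No MPA replicate 1 gave the highest value of the 12 arrays for 11 of the 21 member probe sets, whereas it is the highest for 7.84% of all probe sets. It held 9 member probe sets above 0.5, and its partner, no MPA replicate 2, held 1. The median of the 21 was 0.47 on replicate 1 and 0.06 on replicate 2.

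Among the transcription factors, no Atf4 probe set passed the test at any MFP time, and 1 of the 3 was lower than MPA on every MFP array. The leading probe set, 1438992_x_at, the one with the largest SD over the 12 arrays, stood at 0.09 and -0.10 under MPA, 0.15 and -0.31 without MPA, -0.35 and -0.30 after 6 h, -0.23 and -0.22 after 12 h, -0.33 and -0.67 after 24 h, and -0.48 and -0.67 after 48 h. All 8 MFP arrays were below both MPA arrays, yet no MPA replicate 2 lay among them. The difference after 48 h was -0.58 ± 0.21 (95% confidence interval -1.04 to -0.11, adjusted p = 0.118). The other probe sets gave smaller differences after 48 h: 1439258_at differed by -0.33 ± 0.18 after 24 h and -0.09 ± 0.18 after 48 h, and 1448135_at by 0.14 ± 0.22 and -0.09 ± 0.22. The suffix of 1438992_x_at marks probes that can also match other transcripts, and averaged over its 3 probe sets Atf4 differed by -0.25 ± 0.16 (adjusted p = 0.346). With the Actb 3′ to 5′ difference in the model, 1438992_x_at turned to 0.44.

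Atf5, a related leucine zipper factor that is translated under the same control as Atf4, was measured by a single probe set. It read 0.03 and -0.04 under MPA, 1.01 and -0.02 without MPA, -0.15 and -0.50 after 6 h, -0.67 and -0.30 after 12 h, -0.46 and -0.25 after 24 h, and -0.50 and -0.58 after 48 h. Every MFP array was below every array without MFP, with a gap from -0.04 to -0.15 between them, and the array at 1.01 was far above its replicate. Against MPA the difference ran from -0.32 ± 0.30 after 6 h to -0.54 ± 0.30 after 48 h, where the adjusted p was 0.318.

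Ddit3 encodes CHOP, the factor that promotes death under unresolved ER stress. Its probe set 1443897_at read 0.03 and -0.03 under MPA, 0.56 and 0.06 without MPA, 0.10 and 0.01 after 6 h, 0.18 and -0.38 after 12 h, -0.70 and -0.48 after 24 h, and -0.36 and -0.67 after 48 h. The 24 h and 48 h arrays lay below both MPA arrays, and the 6 h arrays overlapped them. The difference was -0.59 ± 0.24 after 24 h (adjusted p = 0.197) and -0.51 ± 0.24 after 48 h (adjusted p = 0.230). The second probe set, 1417516_at, differed by -0.19 ± 0.19 and -0.03 ± 0.19 at the same times, so the 2 probe sets did not give the same size. In neither probe set was CHOP mRNA called higher at any MFP time, and the upper 95% bound of the difference from MPA after 48 h was 0.02 for 1443897_at and 0.38 for 1417516_at.

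**Figure D2:**
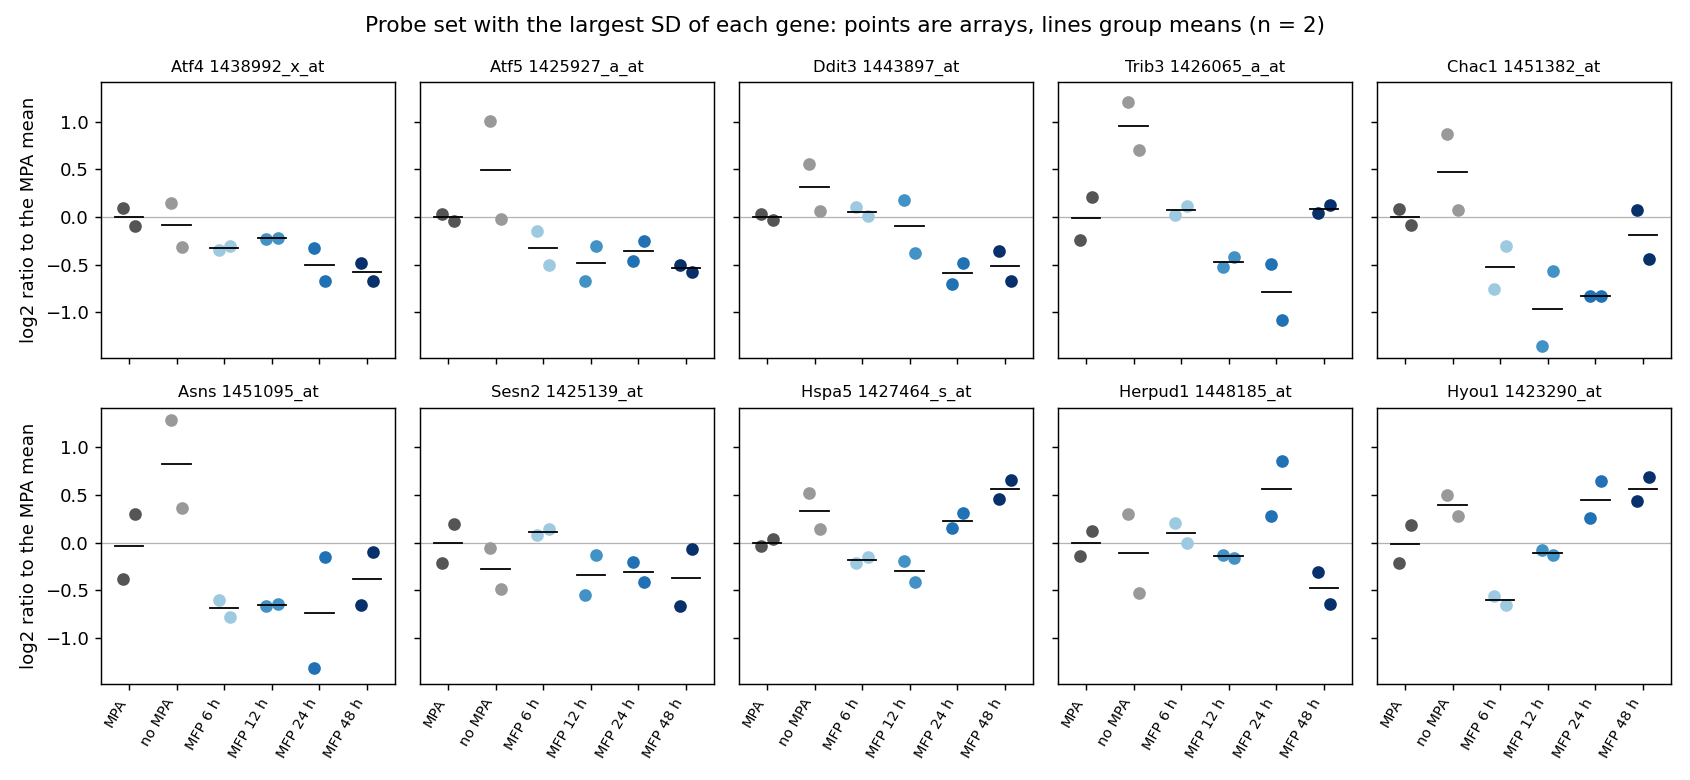
Log2 ratio to the MPA mean (vertical axis) of the leading probe set of each of the 10 genes in the 6 groups (horizontal axis), with a point for each array and a bar at the group mean. Hspa5 and Hyou1 are lowest early and highest after 48 h, Herpud1 is highest after 24 h and lowest after 48 h, and Atf5, Trib3, Chac1 and Asns are highest in no MPA replicate 1.

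The targets Trib3, Chac1 and Asns were lower than under MPA at most MFP times, by up to 2.00-fold, but none of these differences passed the test. Trib3, a pseudokinase that binds ATF4 and restrains AKT, read on probe set 1426065_a_at -0.24 and 0.21 under MPA, 1.21 and 0.70 without MPA, 0.02 and 0.12 after 6 h, -0.53 and -0.42 after 12 h, -0.49 and -1.08 after 24 h, and 0.04 and 0.13 after 48 h. It was thus low at 12 and 24 h, within the MPA range at 6 and 48 h, and highest in the no MPA arrays. On probe set 1456225_x_at it read -0.07 and 0.07 under MPA, 0.43 and 0.02 without MPA, -0.90 and -0.34 after 6 h, -0.92 and -0.89 after 12 h, -0.62 and -1.21 after 24 h, and -0.51 and -0.61 after 48 h. Here all 8 MFP arrays were below all 4 others, which held for 2 of the 21 member probe sets, this one and that of Atf5, and for 3.78% of all probe sets. The difference from MPA after 24 h was -0.77 ± 0.25 (adjusted p = 0.111) and -0.92 ± 0.26 (adjusted p = 0.0652) in the 2 probe sets. Without 24 h replicate 2 the first was -0.47 (adjusted p = 0.474) and the second -0.62 (adjusted p = 0.328). For the mean of the 4 times, 1456225_x_at differed by -0.75 ± 0.20 (adjusted p = 0.0589). Leaving out 24 h replicate 1 made it the 1 called member probe set in that comparison, at an adjusted p of 0.0347, and likewise after 24 h, at 0.0386.

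Chac1, which breaks down glutathione and carries the C/EBP-ATF core shown above, read 0.08 and -0.08 under MPA, 0.87 and 0.07 without MPA, -0.76 and -0.30 after 6 h, -1.35 and -0.57 after 12 h, -0.83 and -0.83 after 24 h, and 0.07 and -0.44 after 48 h. The arrays from 6 to 24 h were all below the MPA arrays, and the 48 h arrays overlapped them. The largest difference was -0.96 ± 0.33 after 12 h, 1.95-fold lower, with an adjusted p of 0.160, where the replicates lay far apart. Without 12 h replicate 1 it was -0.57 (adjusted p = 0.595). At 48 h the difference was -0.18 ± 0.33.

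Asns makes asparagine from aspartate and is the classic target of ATF4 in amino acid shortage, with the core close to its start. On probe set 1433966_x_at it read -0.10 and 0.10 under MPA, 0.60 and 0.22 without MPA, -1.37 and -0.64 after 6 h, -1.04 and -0.74 after 12 h, -1.27 and -0.57 after 24 h, and -0.74 and 0.08 after 48 h. On 1451095_at it read -0.38 and 0.30 under MPA, 1.28 and 0.36 without MPA, -0.60 and -0.78 after 6 h, -0.67 and -0.64 after 12 h, -1.32 and -0.15 after 24 h, and -0.66 and -0.10 after 48 h. Both probe sets were below MPA without overlap at 6 and 12 h and above it without overlap in the no MPA arrays. The difference after 6 h was -1.00 ± 0.34 (adjusted p = 0.220) and -0.65 ± 0.41 (adjusted p = 0.543), the first being the 2.00-fold difference. Without 6 h replicate 1 that first difference was -0.63 (adjusted p = 0.633). The replicates after 24 h lay far apart in both probe sets.

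Sesn2, a sensor of leucine and stress that restrains mTORC1, showed no shared course in its 2 probe sets. At 24 h 1451599_at read -0.36 and -0.51 and differed from MPA by -0.43 ± 0.19 (adjusted p = 0.242), while 1425139_at read -0.20 and -0.41, overlapping MPA at -0.21 and 0.19. At 48 h the differences were 0.12 ± 0.19 and -0.36 ± 0.26. Neither passed the test in any comparison.

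After these values were seen, the 8 MFP arrays were also compared with the mean of the MPA and no MPA groups. That comparison called 6 of the 21 member probe sets, all lower under MFP and 28.6% of them, beside a background of 11.9%. They were Atf5 (-0.67, adjusted p = 0.0399), Trib3 (-0.74, adjusted p = 0.0129, and -0.86, adjusted p = 0.00695), Chac1 (-0.86, adjusted p = 0.0211) and Asns (-0.99, adjusted p = 0.0143, and -1.00, adjusted p = 0.0279). Without no MPA replicate 1, the array that is high for these genes, only Trib3 1456225_x_at was called, at -0.76 (adjusted p = 0.0393). Atf5 was then at -0.41 (adjusted p = 0.137) and Chac1 at -0.66 (adjusted p = 0.0995). Trib3 1426065_a_at was at -0.62 (adjusted p = 0.0659), and Asns at -0.89 and -0.78 (adjusted p = 0.0699 and 0.129). Of the 12 fits that each left out 1 array, the call of Atf5 held in only 1. That of Asns 1451095_at held in 6 and that of Chac1 in 10. Those of Trib3 1426065_a_at and Asns 1433966_x_at held in 11, and that of Trib3 1456225_x_at in all 12. Over all such fits Atf5 ran from -0.93 to -0.41 and Asns 1451095_at from -1.23 to -0.78. With quantile normalization 1 member was called, beside 2.50% of all probe sets. With the Actb 3′ to 5′ difference or the pancreas median as a covariate none was, where limma called 0 and 131 of all probe sets. With the Actb covariate and MPA as the control, Chac1 turned to 0.33 over the mean of the times.

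**Figure D3:**
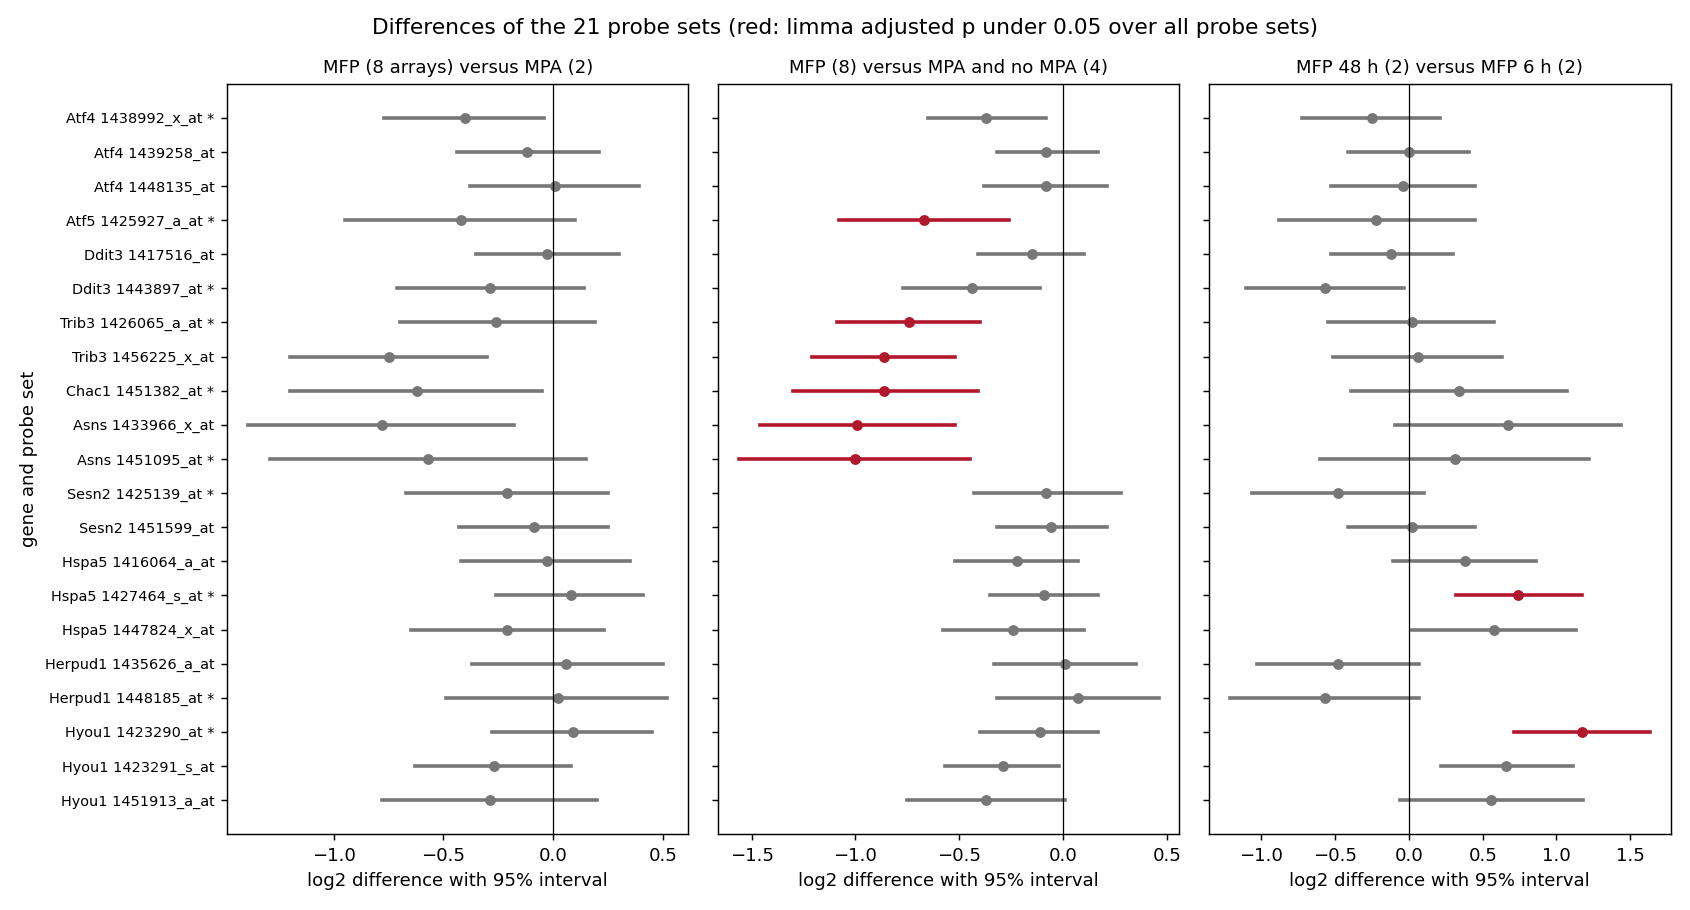
Fitted log2 difference (point, horizontal axis) with its 95% confidence interval (bar) for each of the 21 probe sets (vertical axis) in 3 comparisons: the 8 MFP arrays against MPA, the same arrays against the mean of MPA and no MPA, and 48 h against 6 h of MFP. Red marks the called ones, none on the left, 6 lower in the middle and 2 higher on the right.

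The ER chaperones followed another course, low after 6 h and high after 48 h. Hyou1 1423290_at read -0.21 and 0.18 under MPA, 0.50 and 0.28 without MPA, -0.56 and -0.65 after 6 h, -0.08 and -0.13 after 12 h, 0.26 and 0.64 after 24 h, and 0.44 and 0.69 after 48 h. Hspa5 1427464_s_at, for the chaperone that binds unfolded chains in the ER lumen and whose promoter holds the ER stress response element shown above, read -0.04 and 0.04 under MPA, 0.52 and 0.14 without MPA, -0.21 and -0.15 after 6 h, -0.19 and -0.41 after 12 h, 0.15 and 0.31 after 24 h, and 0.46 and 0.66 after 48 h. In these 2 probe sets the 24 h and 48 h arrays lay above both MPA arrays and every 6 h and 12 h array. Other probe sets did not share this after 24 h: Hyou1 1451913_a_at read -0.58 and -0.59, and Hspa5 1447824_x_at -0.26 and -0.48. From 6 to 48 h Hyou1 1423290_at rose by 1.17 ± 0.21 (95% confidence interval 0.71 to 1.63, 2.25-fold, adjusted p = 0.00821). Hspa5 1427464_s_at rose by 0.74 ± 0.19 (0.32 to 1.17, 1.67-fold, adjusted p = 0.0379). All 3 probe sets of each gene were higher after 48 h than after 6 h, the others by 0.38 to 0.66 without passing the test.

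Measured against MPA, the same probe sets did not pass at either end. At 6 h Hyou1 differed by -0.59 ± 0.21 (1423290_at, adjusted p = 0.233), -0.57 ± 0.20 (1423291_s_at, adjusted p = 0.231) and -0.43 ± 0.28 (1451913_a_at, adjusted p = 0.558). At 48 h Hyou1 1423290_at differed by 0.58 ± 0.21 (adjusted p = 0.116) and its other probe sets by 0.09 ± 0.20 and 0.13 ± 0.28. Hspa5 1427464_s_at differed by 0.56 ± 0.19 after 48 h (adjusted p = 0.0975), and its other probe sets by 0.19 ± 0.22 and 0.09 ± 0.25. So the span from 6 to 48 h joins a low start to a higher end, each too small to be called alone. The no MPA arrays had Hspa5 1427464_s_at at 0.52 and 0.14 and Hyou1 1423290_at at 0.50 and 0.28, within or near the 48 h values: MFP after 48 h differed from no MPA by 0.23 ± 0.19 and 0.18 ± 0.21.

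Other measures moved over the same span. The macrophage median was -0.50 and -0.54 after 6 h and 1.61 and 1.74 after 48 h, the fibroblast median -0.62 and -0.18 against 1.28 and 1.59, and the mammary epithelium median 0.24 and 0.30 against -0.21 and -0.07. The plasma cell median was 0.07 and 0.04 against 0.29 and 0.07, and the skeletal muscle median reached 2.99 on 48 h replicate 1. The part of these cells in the change of Hyou1 and Hspa5 was not tested. The pancreas median was high at both times, and with it as a covariate Hyou1 kept 1.17 (adjusted p = 0.0102) and Hspa5 0.74 (adjusted p = 0.0489). With the Actb 3′ to 5′ difference, both were at 0.87 (adjusted p = 0.602 and 0.576), in a fit that called 0 of 45037 probe sets. Leaving out 6 h replicate 2 or 48 h replicate 2 ended the call of Hyou1 (1.13, adjusted p = 0.0599, and 1.05, adjusted p = 0.0514). Leaving out any one of the 4 arrays ended that of Hspa5, at 0.65 to 0.84 (adjusted p = 0.0817 to 0.167).

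Herpud1, which helps draw misfolded proteins out of the ER membrane for degradation, ran opposite to the chaperones late in the course. Probe set 1448185_at read -0.14 and 0.12 under MPA, 0.30 and -0.53 without MPA, 0.20 and -0.01 after 6 h, -0.13 and -0.16 after 12 h, 0.28 and 0.85 after 24 h, and -0.31 and -0.64 after 48 h. The second probe set, 1435626_a_at, read 0.36 and 0.53 after 24 h and -0.22 and -0.48 after 48 h, beside 0.20 and -0.23 under MPA. In both, the 24 h arrays were above and, apart from an overlap with MPA in 1435626_a_at, the 48 h arrays below those of MPA. The difference from 24 to 48 h was -1.04 ± 0.29 (2.06-fold lower, adjusted p = 0.150) and -0.80 ± 0.25 (adjusted p = 0.206), so neither passed. The 24 h arrays are those with the high liver medians, and the part of that tissue in the Herpud1 values was not tested.

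Removal of the progestin alone gave no called member. For no MPA against MPA limma called 0% of all probe sets at the adjusted threshold, and at an unadjusted p under 0.05 it gave 1 member, Trib3 1426065_a_at, beside 6.58% of all. That probe set differed by 0.97 ± 0.25 (95% confidence interval 0.41 to 1.53, adjusted p = 0.521). Asns 1451095_at differed by 0.86 ± 0.41, Atf5 by 0.50 ± 0.30 and Chac1 by 0.47 ± 0.33, each with replicate 1 well above replicate 2. Without that replicate the difference was 0.71 (adjusted p = 0.734) for Trib3 1426065_a_at, 0.40 for Asns 1451095_at, -0.02 for Atf5 and 0.07 for Chac1. The 21 differences had a median of 0.23, beside 0.01 over all probe sets, with 16 above 0. The median ratio of the 21 was 0.47 on no MPA replicate 1 and 0.06 on replicate 2, so this rested largely on 1 array.

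MFP for 48 h against no MPA compares the drug with the saline-treated tumours at a matched time. No member was called, beside a background of 9.35%, and 6 members had an unadjusted p under 0.05, beside 23.3% of all. Atf5 differed by -1.04 ± 0.30 (adjusted p = 0.0579), Ddit3 1443897_at by -0.82 ± 0.24 (adjusted p = 0.0612), Trib3 1426065_a_at by -0.87 ± 0.25 (adjusted p = 0.0592) and Asns 1451095_at by -1.20 ± 0.41 (adjusted p = 0.102). Without overlap between the arrays, 9 of the 21 member probe sets were lower and 2 higher. Such a separation arises easily with 2 arrays on each side, and its share over all probe sets was not counted. All 4 differences named here were among the lower. Without no MPA replicate 1 they were at -0.52 (adjusted p = 0.330), -0.57 (0.327), -0.61 (0.319) and -0.74 (0.461), in that order. When probe sets were first averaged per gene, 2 of the 10 genes were called, beside 12.3% of all 18193 genes, Trib3 at -0.83 (adjusted p = 0.0465) and Atf5 at -1.04 (adjusted p = 0.0475). Without no MPA replicate 2, leaving the high replicate 1 alone in its group, Atf5 was called at -1.55 (adjusted p = 0.0217).

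The order of the groups differed between probe sets and did not divide them by role. For Atf5, Trib3 1456225_x_at, Chac1 and both probe sets of Asns, no MPA had the highest group mean and MPA the next. No MPA was also highest for Hspa5 1416064_a_at (0.38), Hyou1 1451913_a_at (0.15), Atf4 1448135_at (0.18) and both Ddit3 probe sets. For the target Sesn2 the highest group was 6 h (1425139_at) or 48 h (1451599_at). The Trib3 1426065_a_at means were 0.95 without MPA, 0.09 after 48 h, 0.07 after 6 h, -0.02 under MPA, -0.47 after 12 h and -0.78 after 24 h, and the 3 middle groups overlapped. The Hyou1 1423290_at means were 0.57 after 48 h, 0.45 after 24 h, 0.39 without MPA, -0.01 under MPA, -0.11 after 12 h and -0.60 after 6 h. There the first 3 groups overlapped one another, and the 6 h arrays lay below all others.

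Other genes that depend on ATF4 or partner it, 51 probe sets of 22 genes, had calls where the members had none. Against MPA 0 probe sets rose and 5 fell after 6 h, and 0 rose and 10 fell after 12 h. After 24 h 2 rose and 10 fell, and after 48 h 2 rose and 11 fell. Several belong to the same gene: those that fell came from 3, 5, 6 and 5 genes at these times. These were 9.80%, 19.6%, 23.5% and 25.5% of the list, beside 0.926%, 3.13%, 6.01% and 9.25% of all probe sets. The list's median difference was -0.17, -0.25, -0.15 and -0.09 at these times. The serine synthesis enzymes fell: Phgdh, the first enzyme of the pathway, differed by -2.06 ± 0.19 after 12 h (adjusted p = 0.00316) and -2.09 ± 0.19 after 24 h (adjusted p = 5.96e-04), and Psat1, the next, by -2.88 ± 0.45 after 12 h (adjusted p = 0.0106) and -2.34 ± 0.45 after 48 h (adjusted p = 0.0129). Ddit4, an inhibitor of mTORC1, fell by 2.17 ± 0.24 after 24 h (adjusted p = 0.00132), and the transaminase Gpt2 fell by 1.95 ± 0.21 after 48 h (adjusted p = 0.00230). At 6 h the proline synthesis enzyme Aldh18a1 fell by 1.40 ± 0.22 (adjusted p = 0.0246) and the leucine transporter Slc7a5 by 1.28 ± 0.25 (adjusted p = 0.0476). The rises after 24 h were of Cth, which makes cysteine, by 2.47 ± 0.37 (adjusted p = 0.00509), and of Jdp2, a leucine zipper repressor, by 1.25 ± 0.30 (adjusted p = 0.0362). Those after 48 h were of the lipoprotein receptor Vldlr, by 2.85 ± 0.71 (adjusted p = 0.0335), and of Jdp2, by 2.12 ± 0.30 (adjusted p = 0.00461). Jdp2 also read 1.26 and 1.04 without MPA. With each array left out in turn, the calls of Phgdh, Ddit4, Gpt2, Cth and Jdp2 after 48 h held. With quantile normalization Cth was at 1.55 (adjusted p = 0.167), Gpt2 at -1.60 (adjusted p = 0.0877) and Jdp2 after 48 h at 1.41 (adjusted p = 0.362), and with the Actb covariate none of the 5 genes kept its call (adjusted p = 0.173 to 0.709). With only the arrays compared, Phgdh after 12 h, Cth, Gpt2 and Jdp2 after 48 h were not called either (adjusted p = 0.0516 to 0.0652), nor was Gpt2 with the pancreas covariate (-1.81, adjusted p = 0.0716). The Jdp2 call after 24 h was lost without MPA replicate 1 (0.78, adjusted p = 0.192), 24 h replicate 1 (0.95, adjusted p = 0.146) or 24 h replicate 2 (1.55, adjusted p = 0.0526). The Vldlr call was lost without MPA replicate 1 (3.22, adjusted p = 0.0962), MPA replicate 2 (2.49, adjusted p = 0.135) or 48 h replicate 1 (1.98, adjusted p = 0.185), and that of Psat1 after 48 h without MPA replicate 1 (-2.38, adjusted p = 0.0679) or 48 h replicate 2 (-1.97, adjusted p = 0.0701). After 12 h Psat1 was not called without MPA replicate 1 (-2.92, adjusted p = 0.0510), 12 h replicate 1 (-2.63, adjusted p = 0.0790) or 12 h replicate 2 (-3.12, adjusted p = 0.0639), and those of Aldh18a1 and Slc7a5 without any one array compared (adjusted p = 0.0801 to 0.139 and 0.0619 to 0.209). The liver medians stood at 3.45 and 3.96 after 24 h, where Cth was high.

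Removal of MPA alone called none of these 51 probe sets in limma, where it called 0% of all. At an unadjusted p under 0.05 there were 5, beside 6.58% of all. MFP after 48 h against no MPA called 15 lower, from 8 genes, and 0 higher, 29.4% of the list beside 9.35% of all probe sets. The largest difference was that of the secreted glycoprotein Stc2, which fell by 2.76 ± 0.38 (adjusted p = 0.00346). It held that call with each array left out, though not with the Actb (-4.57, adjusted p = 0.571) or pancreas covariate (-2.50, adjusted p = 0.141). Psat1 differed there by -2.36 ± 0.45 (adjusted p = 0.0104), lost without no MPA replicate 1 (-1.86, adjusted p = 0.0854) or 48 h replicate 2 (-1.99, adjusted p = 0.0629). The split after 48 h against 6 h was mixed, with 4 higher, from 3 genes, and 8 lower, from 5 genes. These were 23.5% of the list beside 9.08% of all probe sets. Among the higher were Jdp2 at 2.46 ± 0.30 (adjusted p = 0.00259) and another probe set of Stc2 at 1.30 ± 0.34 (adjusted p = 0.0403). Among the lower, Gpt2 fell by 1.83 ± 0.21 (adjusted p = 0.00247) and Ddit4 by 2.00 ± 0.24 (adjusted p = 0.00256). The Stc2 call was lost without any one of the arrays compared (adjusted p = 0.105 to 0.201). Jdp2 was at 1.81 (adjusted p = 0.138) with quantile normalization, and with the Actb covariate Jdp2, Ddit4 and Gpt2 were at 2.58, -1.59 and -1.49 (adjusted p = 0.334, 0.398 and 0.391).

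**Figure D4:**
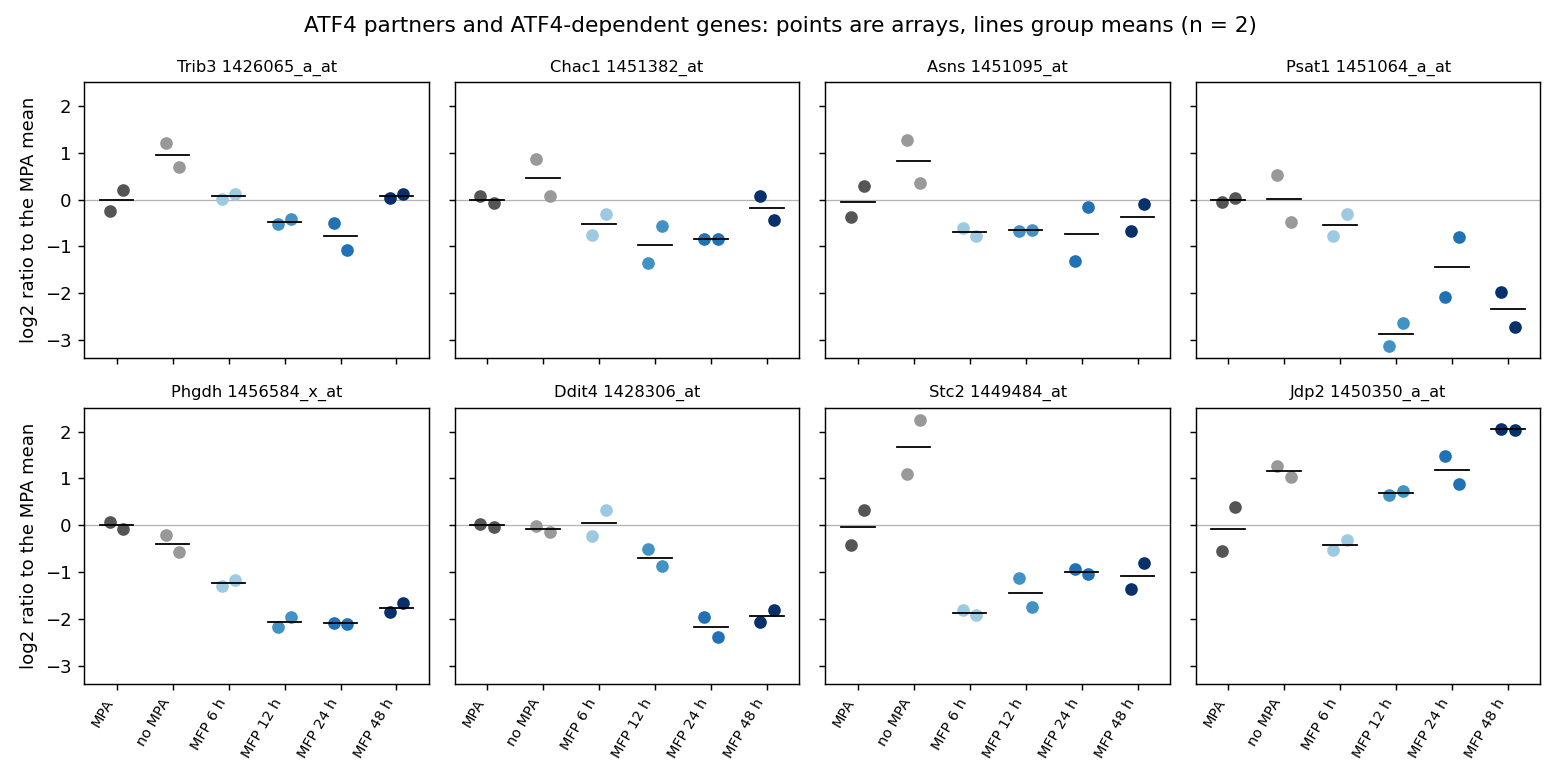
Log2 ratio to the MPA mean (vertical axis) in the 6 groups (horizontal axis) of Trib3, Chac1 and Asns and of 5 other genes of the ATF4 list, Psat1, Phgdh, Ddit4, Stc2 and Jdp2, with a point for each array and a bar at the group mean. Phgdh lies far below 0 on the MFP arrays. Psat1 is at -0.77 and -0.31 after 6 h and lowest after 12 h, at -3.12 and -2.63. Ddit4 is lowest after 24 and 48 h. Jdp2 is highest after 48 h and also above 0 without MPA, at 1.26 and 1.04.

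Upstream of ATF4, the 16 probe sets of 6 genes for eIF2alpha kinases, phosphatase subunits and eIF2 gave no call against MPA at any single time. The background was 0.926% to 9.25% of all probe sets. At an unadjusted p under 0.05 there were 1 to 3, beside 14.0% to 24.0% of all. For the mean of the 4 times 1 was called, 6.25% of the list beside 5.59% of all. Over the mean of the times the heme-regulated kinase Eif2ak1 rose by 0.67 ± 0.14 (adjusted p = 0.0274), a call lost without MPA replicate 1 (0.68, adjusted p = 0.143), MPA replicate 2 (0.66, adjusted p = 0.121) or 12 h replicate 2 (0.66, adjusted p = 0.0536).

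Beside Hspa5, Herpud1 and Hyou1, 57 probe sets of 26 genes for ER chaperones, folding enzymes and ER-associated degradation were largely without calls against MPA. Of these 0 rose and 1 fell at 6, 12 and 24 h, and 1 rose and 0 fell after 48 h. That is 1.75% of the list each time, beside 0.926%, 3.13%, 6.01% and 9.25% of all probe sets. Manf, a secreted ER stress protein, fell by 0.98 ± 0.18 after 6 h (adjusted p = 0.0391) and 0.99 ± 0.18 after 12 h (adjusted p = 0.0193), the lectin chaperone Canx fell by 0.81 ± 0.17 after 24 h (adjusted p = 0.0201), and Hspa13 rose by 0.96 ± 0.20 after 48 h (adjusted p = 0.0183). From 6 to 48 h 6 rose and 2 fell, 14.0% of the list beside 9.08% of all probe sets. Calr, the soluble partner of Canx, rose by 1.21 ± 0.26 (adjusted p = 0.0182) and another probe set of Hspa13 by 1.26 ± 0.32 (adjusted p = 0.0339), while the disulfide oxidase Ero1a fell by 2.07 ± 0.49 (adjusted p = 0.0267) and the co-chaperone Dnajc3 by 0.65 ± 0.17 (adjusted p = 0.0443). Each of these calls was lost when some one array was left out, at adjusted p up to 0.195 for Manf, 0.0843 for Canx, 0.0835 for Hspa13 after 48 h against MPA, 0.101 for Calr, 0.193 for Hspa13 from 6 to 48 h, 0.168 for Ero1a and 0.188 for Dnajc3. Of 23 probe sets of 8 genes for the ATF6 and IRE1-XBP1 sensors and factors, 1 rose after 48 h against MPA, 4.35% beside 9.25% of all. It was Creb3l2, by 1.33 ± 0.28 (adjusted p = 0.0184). The exocrine pancreas median was 4.46 and 5.06 after 48 h but -0.68 and -0.69 without MPA. The part of that tissue in differences between these 2 groups was not tested. MFP after 48 h against no MPA called 4 probe sets of 2 genes higher, 17.4% beside 9.35% of all. Among them were Xbp1 by 1.21 ± 0.26 (adjusted p = 0.0183) and Creb3 by 0.72 ± 0.18 (adjusted p = 0.0314). These too were lost when some one array was left out, at adjusted p up to 0.120, 0.120 and 0.152.

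The genes whose course over the 12 arrays was most like a member's were found by the root mean square difference after centring each gene on its own mean, among 18192 genes. For Hspa5 1427464_s_at they were Serp1 (0.13), an ER membrane protein that protects unfolded proteins under stress, Mrps16 (0.15), Abcf2 (0.16) and Psmb6 (0.16), where the median over all genes was 0.46. For Ddit3 1443897_at they were Mrpl49 (0.15), Ncmap (0.15), Hba-a2 (0.16) and Sf3b2 (0.16), with a median of 0.47, and for Atf4 1438992_x_at Scaf1 (0.11), Brk1 (0.11), Rcor2 (0.12) and Mcm3ap (0.12), with a median of 0.39. The spread of Atf4 1438992_x_at was itself small, an SD of 0.26 over the 12 arrays, and its differences of 0.11 and 0.12 are to be read against it.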

How the data were processed

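RNA from formalin-fixed tumours (200 ng per array) was measured on Affymetrix Mouse Genome 430 2.0 arrays. The authors' deposited table holds log2 values; per the submitters' processing notes GCRMA was used, with no version given. For 45099 of 45101 probe sets the linear mean of the MPA arrays is 1 (tolerance 1e-04), so the levels above background are lost, as is any depth measure; 2 arrays per group limit the precision. Symbols came from the platform annotation; 64 control probe sets were left out. A limma 3.58.1 model (R 4.3.3) with 6 group means, eBayes moderation (residual df 6, prior df 4.38) and p-values adjusted by Benjamini-Hochberg across 45037 probe sets was tested on simulated data. Pathway genes named come from the 2 with the largest change per list, direction and comparison among those called. Alternatives were probe set averaging, 1 probe set per gene, median centring, quantile normalization, array weights, robust eBayes, an SD filter, the Actb and pancreas covariates, fits of the compared arrays and leaving out each array. The members, lists and alternatives were chosen with earlier results of these data known. Genes without a probe set of a single symbol were not analysed here.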

Additional observations from a re-analysis of the deposited data

Results flagged for a closer look

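The effects of MFP at 6 h and at 48 h differed in a direct test for 2 member probe sets, 9.52% beside 9.08% of all probe sets. They were Hyou1 1423290_at by 1.17 (adjusted p = 0.00821 in limma, 48 h minus 6 h) and Hspa5 1427464_s_at by 0.74 (adjusted p = 0.0379). In both probe sets each 48 h array was higher than each 6 h array. No other member probe set passed the direct test. With quantile normalization neither was called, Hyou1 at 1.03 (adjusted p = 0.125) and Hspa5 at 0.63 (adjusted p = 0.253). With only the arrays compared Hspa5 was not called (adjusted p = 0.0893). As given above, each call was also lost when some one array was left out.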

How the results depend on the processing

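No member was called in 10 of the 11 comparisons other than the added one, and most alternatives gave none there either. No paired analysis was possible because the labels carry no replicate numbers. Replicates 1 and 2 are named here by the order of the samples within each group. The exceptions for MFP 48 h against no MPA were 2 of 10 genes called with probe sets averaged, and a range of 0 to 1 with an array left out (1 without no MPA replicate 2). For MFP 48 h against 6 h, 1 was called with probe sets averaged, with only probe sets of SD above the median, and with only the arrays compared, 0 with quantile normalization and 0 with the Actb covariate, and 0 to 1 with an array left out (0 without 6 h replicate 2 or 48 h replicate 2). At 24 h against MPA and for the mean of the times the range was 0 to 1 (1 without 24 h replicate 1). With the mean of MPA and no MPA as control, chosen after seeing the data, 6 were called. The Actb covariate turned the sign for Atf4 1438992_x_at (0.32 at 24 h, 0.44 at 48 h, 0.30 for the mean of the times, 0.45 for 48 h against no MPA), Chac1 (0.28 at 24 h, 0.33 for the mean), Trib3 1456225_x_at (0.21 for 48 h against no MPA) and Creb3l2 (-0.21 at 48 h); the cause was not tested. For single probe sets, 575 of 718 values under alternatives other than leaving out an array kept direction and side of the threshold. Of the rest, 131 lost the call, 4 gained one and 8 changed sign. With an array left out, 287 of 398 kept both, 108 lost the call, 3 gained one and none changed sign. These totals include member probe sets not called in the main fit, which kept their side by staying uncalled. They therefore do not measure how well the calls held. With 2 arrays per group and ratios in place of signals, small changes and levels near background cannot be judged.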
